A study of Mus musculus with 4 samples.

Results

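The cells described here are fibroblasts of the ascending aorta that carried Pi16 RNA after 3 days of angiotensin II (AngII), a peptide hormone that constricts vessels and raises blood pressure. They came from 1 droplet-based single-cell library, labelled SHF_AngII, of male Mef2c-mTmG mice, in which a fluorescent reporter follows cells of the second heart field (SHF), an embryonic source of the outflow tract. A barcode counted as a cell if 500 or more genes were detected in it and no more than 10% of its UMIs (unique molecular identifiers, captured transcripts) were mitochondrial. It was called a fibroblast with at least 1 Pdgfra UMI, at least 5 Dcn UMIs, at most 2 Myh11 UMIs and no Ptprc or Pecam1 UMI. It was called Pi16-positive with at least 2 Pi16 UMIs and fewer than 2 UMIs each of Comp, Chad and Cthrc1, limits that set aside cartilage-like and Cthrc1-expressing fibroblasts. This gave 779 Pi16-positive cells, out of 2398 gated fibroblasts and 9490 kept cells in the library, and out of 28540 kept cells in the 3 libraries used.

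The comparison groups were the 170 fibroblasts of the same library with no Pi16 UMI and the same limits (Pi16-zero cells), and the same gates in the SHF_Baseline library, from male mice of the same strain sampled at baseline, with 2277 Pi16-positive and 410 Pi16-zero cells. The CNC_AngII library, from male Mef2c-mTmG mice after 3 days of AngII but sorted as the CNC lineage, which the labels do not spell out, gave 251 Pi16-positive cells. All cells were sorted alive and single on the lineage reporter before capture. Age, AngII dose and the number of animals behind a library were not given in the sources used here. Each group is 1 library, so no difference between groups has a replicate check, no test was made, and the intervals are 95% intervals that cover counting error only.

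Pi16 encodes a secreted protein related to peptidase inhibitors. Fibroblasts that express it together with Clec3b (tetranectin), Ly6a (Sca-1), Cd34 and Dpp4 lie in the adventitia around vessels of many organs and are often called universal or adventitial fibroblasts. They are regarded as a reserve population from which matrix-secreting fibroblasts can arise, and in the vessel wall they are also a source of chemokines.

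The 3 libraries held 9412 to 11166 barcodes, of which 8579 to 10471 were kept. Median depth was 11806 UMIs in the Pi16-positive AngII cells, 9408.5 in the Pi16-zero AngII cells, 9187 in the Pi16-positive baseline cells and 8597 in the Pi16-zero baseline cells. Any pair of libraries shared 29 to 34 barcodes, and 0 of these were Pi16-positive cells in both. Scrublet marked 0 of the 779 cells as doublets. Levels below are CPM, the UMIs of a gene added up over a group of cells and scaled to the same total UMIs in every group. Ratios are log2 ratios of CPM + 1. A gene was counted as higher or lower where the ratio was at least 2-fold and the mean of both groups at least 20 CPM.

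Of the 4 markers of this cell type that the rule had not used, Clec3b and Ly6a stood more than 2-fold higher in the Pi16-positive AngII cells, and Cd34 and Dpp4 did not. Clec3b stood at 502 CPM in the Pi16-positive AngII cells and at 174 CPM in the Pi16-zero cells of that library. Ly6a stood at 1669 and 358 CPM. Cd34 stood at 282 and 225 CPM (log2 ratio 0.33). Dpp4 stood at 4.66 and 11.6 CPM, and its UMIs in the Pi16-zero cells all lay in 8 cells with mesothelial or adipocyte markers. The Pi16-positive cells had a median of 10 Pi16 UMIs. In the smooth muscle gate of the same library (at least 10 Myh11 UMIs and no Pdgfra, Ptprc or Pecam1 UMI), 9.95% of 4160 cells had at least 1 Pi16 UMI and 1.51% had at least 2, at a median depth of 13792.5 UMIs. The share with at least 2 in the fibroblast gate was 82.9%.

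The Pi16-positive cells within the limits were a smaller share of the fibroblasts under AngII. They made up 32.5% of gated fibroblasts (Clopper-Pearson interval 30.6 to 34.4) under AngII and 69.8% (68.2 to 71.4) at baseline. Before the limits, fibroblasts with at least 2 Pi16 UMIs were 82.9% under AngII and 77.9% at baseline. The median depth of gated fibroblasts was 15510 UMIs under AngII and 9169 at baseline. After each cell was thinned to 5000 UMIs before gating, this share was 68.0% (65.4 to 70.4) under AngII and 75.1% (73.2 to 76.9) at baseline, the opposite order. Cthrc1 encodes a secreted protein of activated fibroblasts. Its limit alone, with Comp and Chad below 2, set aside 862 cells under AngII and 138 at baseline. These were 43.4% and 5.43% of the cells with at least 2 Pi16 UMIs. In the thinned cells, the Pi16-positive share within the limits was 40.8% under AngII and 69.5% at baseline. Cells with at least 2 Cthrc1 UMIs were then 35.4% and 3.14% of those with at least 2 Pi16 UMIs. The CNC AngII library gave 32.6% Pi16-positive cells. All shares are of cells sorted on the lineage reporter.

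**Figure D1:**
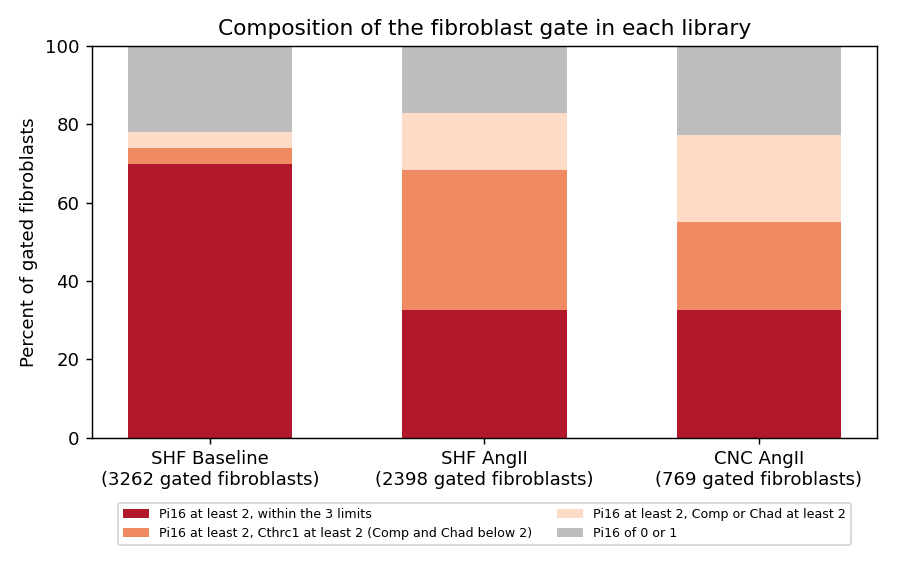
Composition of the fibroblast gate, in percent of gated fibroblasts, in 3 libraries. The dark red segment, Pi16-positive cells within the limits, is 69.8% in SHF baseline and 32.5% in SHF AngII, and the orange Cthrc1 segment is larger in both AngII libraries than at baseline.

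Within the AngII library, surface and matrix genes of adventitial fibroblasts were higher in the Pi16-positive cells than in the Pi16-zero cells. Of 5188 genes, 61 (1.18%) were higher and 122 (2.35%) lower, with a median log2 ratio of -0.04. TMM scaling moved the median to 0.07 and gave 75 higher and 89 lower, so 45.7% in place of 33.3% of the called genes were higher. The cells were chosen by Pi16 in these libraries, so these values describe the choice and are no support for it. Of 27 genes listed for universal adventitial fibroblasts, 19 had enough counts, and 7 of them were higher, 1 was lower and the median was 0.92. The higher genes were Ly6c1, Ly6a, Mfap5, Cd248, Clec3b, Cd55 and Ackr3, and the lower one was Limch1. At baseline the same contrast gave 22 of 24 genes higher and 0 lower, against 1.91% higher and 2.27% lower of all genes, and a median of 2.10.

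Ly6c1, which encodes a small surface protein, stood at 192 CPM in the Pi16-positive AngII cells and 22.7 CPM in the Pi16-zero cells (log2 ratio 3.03). Mfap5, a microfibril protein that binds fibrillin, stood at 2247 and 630 CPM (1.83, counting interval 1.75 to 1.92). Ly6a was detected in 90.2% of Pi16-positive and 46.5% of Pi16-zero cells, or in 84.1% and 33.3% after thinning to 5000 UMIs. These 3 genes were also higher in the Pi16-positive cells at baseline.

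Of the genes with the highest ratios, several are known outside the adventitial list. Tmem100, a membrane protein of BMP signalling, stood at 41.8 against 4.22 CPM (3.03). Meox1, a homeobox transcription factor linked to fibroblast activation, stood at 35.0 against 6.86 CPM (2.20). Cytl1, a small secreted protein, had 54.0 against 8.97 CPM (2.47), but its ratio was -0.43 against all Pi16-zero gated fibroblasts, limits removed. Also among the 12 highest were Epyc (106 against 25.8 CPM), Plac8, Ass1, Htra3 and Lbp, the last at 1.61. Among listed genes, Il33 (an alarmin, 281 against 122 CPM), Has1 (a hyaluronan synthase, 98.2 against 38.0 CPM), Igf1 (a growth factor, 1145 against 545 CPM) and Fbln2 (a matrix protein, 625 against 254 CPM) were higher too. In this contrast the chemokine and cytokine list had 1 of 18 genes higher and 1 lower (median -0.04). The IGF list had 2 of 8 higher and 1 lower (0.06). The elastic fibre list had 2 of 15 higher (0.15) and the hyaluronan list 2 of 5 (0.79), with 0 lower in both.

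Ren1, which encodes renin, the enzyme that begins angiotensin production, had 665 UMIs (67.4 CPM) in the Pi16-positive AngII cells and 0 in the Pi16-zero cells. The 665 UMIs lay in 6.16% of the Pi16-positive cells. A floor of 3 UMIs over the Pi16-zero group would be 1.58 CPM, but it takes UMIs to fall independently. Ren1 UMIs were concentrated in few cells (variance over mean 30.1 after thinning to 5000 UMIs), so this floor sets no bound on the fold. At baseline Ren1 stood at 70.1 CPM in Pi16-positive and 1.43 CPM in Pi16-zero cells, and in the CNC AngII cells at 6.43 CPM. The log2 ratio of AngII over baseline in the Pi16-positive cells was -0.06 (-0.19 to 0.08). Agtr1a, the main AngII receptor gene, had 16 UMIs (1.62 CPM) under AngII and 5.14 CPM at baseline, too few counts for the fold rule.

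Smooth muscle markers and several signalling genes were lower in the Pi16-positive cells. Gucy1a1, a subunit of the nitric oxide receptor, stood at 11.2 CPM in the Pi16-positive and 100.2 CPM in the Pi16-zero cells (-3.06). Angpt2, a ligand of the Tie2 receptor, stood at 9.02 and 76.5 CPM (-2.95), and Mylk, the myosin light chain kinase, at 11.4 and 89.7 CPM (-2.88). Npnt and Fbln7, both matrix proteins, had ratios of -2.44 and -2.09. Of the 9 smooth muscle markers, 7 had enough counts, and Acta2 (-1.08), Cnn1 (-1.67), Tpm2 (-1.51) and Lmod1 (-1.50), 4 of these 7, were lower. None of the 9 was without UMIs in either group, and their summed level was 4979 CPM in the Pi16-positive and 10498 CPM in the Pi16-zero cells, against 79307 CPM in the smooth muscle gate. The part of smooth muscle RNA in these ratios was not tested.

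The Pi16-zero cells of the AngII library also held a few cells of other kinds. Of the 170, 7 had at least 2 UMIs over 7 mesothelial markers and 1 had at least 2 over 3 adipocyte markers, against 0 of the 779 Pi16-positive cells. The summed level of the mesothelial markers was 433 CPM in the Pi16-zero and 0.10 CPM in the Pi16-positive cells, where 6 of the 7 were at 0. Without these 8 cells, 61 genes were higher and 104 lower. Of the genes named lowest, Slc9a3r1 moved from -2.97 to -0.36, Fabp5 from -2.69 to -0.48, Ezr from -2.29 to -0.24, Bicd1 from -2.10 to -0.71, Fabp4 from -2.06 to -0.72, Trf from -2.18 to -0.99 and Nkain4 from -2.43 to 0.47, so that none of these 7 was past 2-fold. Gucy1a1 (-3.02), Angpt2 (-3.08), Mylk (-2.50), Npnt (-2.51) and Fbln7 (-2.23) were past it without those cells. The universal list then had 10 of 18 genes higher, 1 lower and a median of 1.03. Dpp4, a surface peptidase of these fibroblasts, had 22 UMIs in the Pi16-zero group with those cells and 0 without them. It stood at 4.66 CPM in the Pi16-positive cells. A floor of 3 UMIs in the Pi16-zero group would be 1.74 CPM, if UMIs fell independently of cell.

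**Figure D2:**
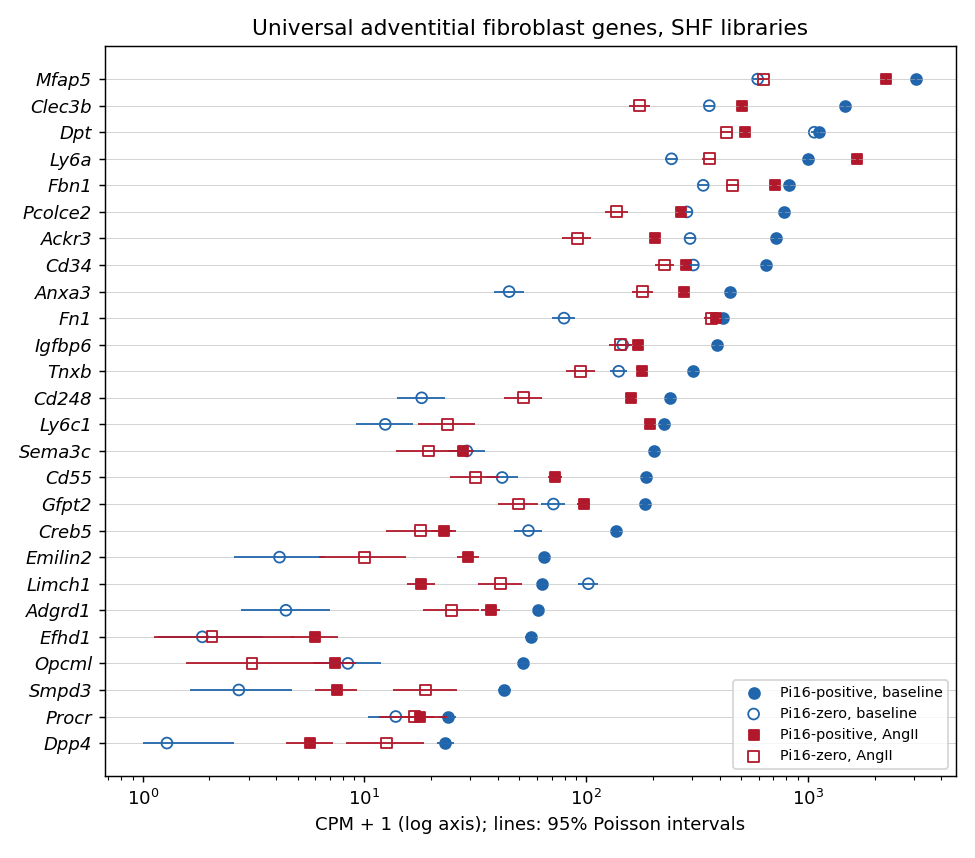
Levels of 26 genes of the universal adventitial list (CPM + 1, log axis) in Pi16-positive (filled) and Pi16-zero (open) cells at baseline (blue) and under AngII (red), with Poisson intervals as lines. Most filled blue points, such as Clec3b at 1470 CPM, lie to the right of the filled red ones (502 CPM), while Ly6a is higher under AngII (1669 against 997 CPM).

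Clec3b, Ly6a and several other adventitial genes stood highest in the cells with the most Pi16, though not every gene rose from class to class. Across classes of Pi16 UMIs under AngII, which are ranges of a count and not cell types, Clec3b stood at 154 CPM in the 93 cells with 1 Pi16 UMI, just outside the rule, and at 217 CPM in the 70 cells with 2, just inside it. It stood at 325 CPM in the 298 cells with 3 to 9 UMIs, 406 CPM in the 284 cells with 10 to 29 and 1212 CPM in the 127 cells with 30 or more. Ly6a stood at 807, 745, 1144, 1545 and 3442 CPM in the same 5 classes. Fn1, fibronectin, stood at 341, 457, 308, 355 and 571 CPM and Anxa3, an annexin, at 248, 227, 224, 255 and 447 CPM, so that both were highest in the last class with no steady order before it. The Pi16-zero cells did not lie below the 1-UMI class in every gene: Clec3b (174 against 154 CPM), Cd34 (225 against 178 CPM), Igfbp6 (142 against 53.0 CPM) and Dpp4 were higher in them, and Ly6a (358 against 807 CPM) was lower. Acta2, smooth muscle actin, ran the other way, at 3381, 3176, 2673, 1696 and 697 CPM. Among these 5 classes Dpp4 was highest in the last, at 23.8 CPM, with at most 0.8 CPM in the 4 others, apart from the 11.6 CPM of the Pi16-zero cells. Timp1, an inhibitor of matrix metalloproteinases, stood between 3002 and 3841 CPM in these 5 classes, with no such gradient among them. It was lower in the Pi16-zero cells, at 1583 CPM. Depth differs between the classes, at medians of 9279 to 12925.5 UMIs.

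**Figure D3:**
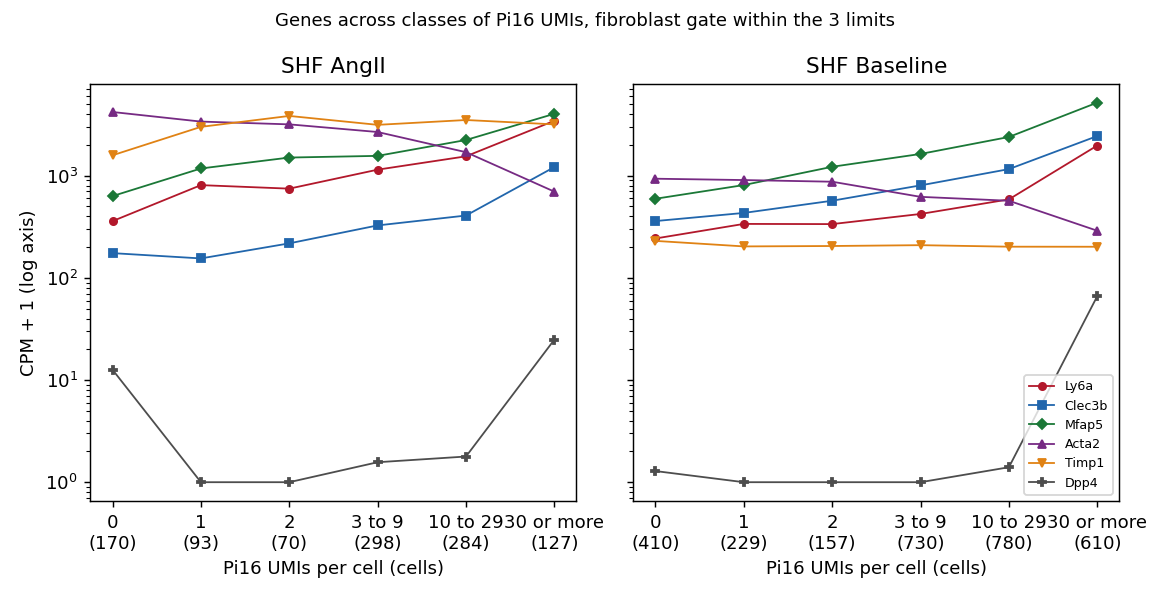
CPM + 1 (log axis) of 6 genes across classes of Pi16 UMIs per cell, with the number of cells in parentheses, in SHF AngII (left) and SHF baseline (right). Clec3b reaches 1212 CPM in the highest class under AngII and 2441 CPM at baseline, whereas Acta2 is lowest there.

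Between conditions, the Pi16-positive cells under AngII had lower adventitial genes and higher Timp1, chemokine, acute-phase and cell-cycle genes than those at baseline. Of 5326 genes, 198 (3.72%) were higher and 448 (8.41%) lower, with a median of -0.13. TMM scaling moved the median to 0.07 and turned the split to 316 higher and 258 lower, so 55.1% in place of 30.7% of the called genes were higher. Ratios here are relative to total UMIs. Condition cannot be told apart from library, and the 2 files were made with different gene lists: 36 of the tested genes, 24 of them higher, shifted more than 4-fold alike in Pi16-positive, Pi16-zero and smooth muscle cells. Without these, genes matched through a synonym and genes with overlapping exons, 155 of 4712 were higher and 393 lower.

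Of the universal adventitial list, 0 of 24 genes were higher and 14 were lower, with a median of -1.17. With TMM scaling 10 were lower, with a median of -0.97. Within the AngII library 19 genes of this list had enough counts, and within the baseline library 24. Some may thus have passed the minimum largely through their baseline level, which by itself pulls the count and the median down. Clec3b stood at 502 CPM (489 to 517) under AngII and 1470 CPM (1453 to 1486) at baseline. Sema3c, a secreted guidance protein, stood at 26.8 and 201 CPM (-2.86), Ackr3, a scavenging chemokine receptor, at 203 and 718 CPM (-1.82), and Cd34 at 282 and 645 CPM (-1.19). Efhd1 (-3.24), Opcml (-2.82), Creb5 (-2.58), Smpd3 (-2.52), Limch1 (-1.82), Pcolce2 (-1.53), Cd55 (-1.37), Igfbp6 (-1.19), Emilin2 (-1.14) and Dpt (-1.10) were lower too. The exons of Creb5 overlap another gene, and without overlapping or synonym-matched genes 13 of 22 were lower, with a median of -1.17. Ly6a (0.74), Ly6c1 (-0.22), Mfap5 (-0.45) and Fn1 (-0.10) did not pass 2-fold. In the Pi16-zero cells the list had 3 genes higher and 6 lower of 18, with a median of -0.48, beside 5.16% higher and 8.13% lower of all genes in those cells.

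Within the limits, the high-Pi16 cells were a smaller share under AngII, 127 of 779 against 610 of 2277 at baseline. Of those 610, 12 carried at least 2 mesothelial marker UMIs, against 0 of the 127. The limits kept 39.2% of cells with at least 2 Pi16 UMIs under AngII and 89.6% at baseline. Under AngII, cells set aside on Cthrc1 alone had a median of 20068.5 UMIs, against 11806. The share without the limits or at equal depth is not given here. In cells with 30 or more Pi16 UMIs alone, 17 of 26 listed genes were lower, 0 were higher and the median was -1.13. Of all 5405 genes in those cells, 481 were lower and 186 higher. With the Cthrc1, Comp and Chad limits removed, 15 of 25 were lower, 0 were higher and the median was -1.25. Of all 5341 genes, 541 were then lower and 258 higher.

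Timp1 stood at 3344 CPM (3308 to 3380) under AngII and 203 CPM (197 to 209) at baseline (4.04). It was also higher in the smooth muscle gate (3.40). Of the activated fibroblast list, 10 of 21 genes were higher and 0 lower, with a median of 0.99. Among these were Timp1, Tagln (2.03), Acta2 (1.99), Col8a1 (1.68), Tpm2 (1.64), Lox (1.22), Itga5 (1.20), Ltbp2 (1.16) and Tgfb1 (1.15). Acta2, Tagln and Tpm2 are smooth muscle genes, and the summed smooth muscle markers were 4979 CPM under AngII against 1451 CPM at baseline in the Pi16-positive cells, so their part in these ratios was not tested. Postn, periostin, stood at 60.6 and 59.7 CPM (0.02) within the limits, which set aside Cthrc1-expressing cells with more Postn under AngII. Its ratio without the limits is not given here. With the limits removed in both libraries, 14 of 22 activated fibroblast genes were higher and 0 lower, with a median of 1.20. Of all 5341 genes, 258 were then higher and 541 lower.

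Within the limits, collagens were close to level. Of 24 genes for collagens and their assembly, 2 were higher (Lox, and Loxl3 at 1.19) and 1 lower (Pcolce2), with a median of 0.02. The limits set aside the Cthrc1-expressing cells. Those with Comp and Chad below 2 had a summed level of these genes of 30987 CPM, against 22962 CPM in the Pi16-positive cells under AngII. With the limits removed in both libraries, 6 of 24 were higher and 1 lower, with a median of 0.26, beside 258 higher and 541 lower of all 5341 genes. Within the limits, Col1a1 stood at 3474 CPM under AngII and 3915 CPM at baseline, and Col3a1 at 6275 and 7103 CPM. The basement membrane genes Col4a1 (941 against 359 CPM) and Col4a2 (377 against 155 CPM) were higher. Col15a1 went the other way in each class of at least 2 Pi16 UMIs, as at 146 against 373 CPM in cells with 10 to 29. Of 16 genes listed for Col15a1-type fibroblasts, 3 were higher and 4 lower, with a median of -0.05. Mgp, an inhibitor of calcification, stood at 36715 and 11777 CPM (1.64). Of 16 elastic fibre genes, Efemp2 (1.56), Emilin1 (1.38) and Ltbp2 were higher, and Ltbp4 (-1.64) and Emilin2 lower. Of 8 small leucine-rich proteoglycans, Omd (-1.58), Aspn (-1.27) and Fmod (-1.07) were lower and 0 higher.

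Of 16 chemokine, cytokine and acute-phase genes, 8 were higher and 1 lower, with a median of 0.98. Within the AngII library 18 genes of this list had enough counts, and within the baseline library 14. Some may thus have passed the minimum largely through their AngII level. Serpina3n, a protease inhibitor, is among the 36 genes that shifted alike (3.04 in Pi16-positive, 2.15 in Pi16-zero and 2.58 in smooth muscle cells), and without it 7 of 15 were higher and the median was 0.69. Ccl2, which draws monocytes, stood at 398 and 103 CPM (1.95), and Ccl7, a related chemokine, at 569 and 87.1 CPM (2.69). Ccl2 was detected in 30.3% of the cells under AngII and 5.05% at baseline, or 24.7% and 4.35% after thinning. Ccl19, a ligand for Ccr7, stood at 365 and 62.6 CPM (2.53). Lcn2, an iron-binding acute-phase protein, stood at 114 and 2.76 CPM (4.94), and Cxcl10 at 50.1 and 6.14 CPM (2.84). Cxcl1 (1.35) and Cxcl2 (1.26), which draw neutrophils, were higher, and Ccl11 (-1.15), which draws eosinophils, was lower. Il6 stood at 237 and 224 CPM (0.08). The macrophage markers summed to 14.6 CPM under AngII and 7.75 CPM at baseline.

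Of 12 interferon and MHC genes, 4 were higher and 0 lower, with a median of 0.71. Isg15, a ubiquitin-like protein, stood at 293 and 29.7 CPM (3.26), Irf7, a transcription factor of the response, at 43.5 and 13.3 CPM (1.64), Ifit3 at 98.8 and 36.6 CPM (1.41) and Ifit1 at 47.5 and 19.8 CPM (1.22). The MHC genes did not pass 2-fold: B2m stood at 465 and 544 CPM and H2-D1 at 337 and 537 CPM. The promoter of Isg15 (RefSeq, GRCm38.p6, chr4:156200769-156201068, minus strand, 250 bases before to 50 after the start) is shown because it had the highest ratio of the list. The capitals mark matches on either strand to the interferon-stimulated response element, searched as GAAA, any 2 bases, then GAAA.
Isg15: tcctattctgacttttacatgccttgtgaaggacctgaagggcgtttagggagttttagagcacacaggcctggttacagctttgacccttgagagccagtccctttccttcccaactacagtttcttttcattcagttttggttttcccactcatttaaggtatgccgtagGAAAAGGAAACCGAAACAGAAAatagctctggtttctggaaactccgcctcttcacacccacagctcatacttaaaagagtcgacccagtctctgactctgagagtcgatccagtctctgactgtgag
The 3 matches overlap one another in 1 run. Matches occurred in 7 of the 12 promoters found for the 13 listed genes, and in 3.44% of 32851 promoters of the same length. A match describes the letters and shows no binding.

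Of 21 listed cell-cycle genes 11 had enough counts, and 8 of these were higher under AngII and 0 lower, with a median of 2.33. Within the baseline library only 2 of the 21 had enough counts. Genes thus passed the minimum largely through their AngII level, which by itself pulls the count and the median up. In cells with 30 or more Pi16 UMIs, 3 of 6 were higher, with a median of 1.11. Mki67, a marker of cycling cells, stood at 37.5 and 5.23 CPM (2.63) and was detected in 10.8% and 0.31% of the cells, or in 8.23% and 0.28% after thinning. Top2a, a topoisomerase, stood at 47.0 and 5.09 CPM (2.98). Cdk1 (3.70), Birc5 (3.60), Tyms (2.33), Cenpa (2.32) and Cenpf (1.43) were higher too. Ube2c is among the genes that shifted alike (3.62, 3.90 and 3.46 in the same 3 groups), and the exons of Top2a overlap another gene. Without these, 6 of 9 were higher, with a median of 2.32. The Pi16-zero cells had 9 of 10 higher, with a median of 2.19, under the same minimum.

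Immediate early genes were lower in 11 of 20 and higher in 0, with a median of -1.12. Egr1 stood at 925 and 2548 CPM (-1.46), Atf3 at 149 and 470 CPM (-1.65), and Fos, a subunit of AP-1, at 1657 and 3401 CPM (-1.04). In the smooth muscle gate 7 of 19 were lower, with a median of -0.86, and of all genes tested there 2.93% were higher and 3.61% lower. The stress chaperone gene Hspa1a, on the same list, stood at 274 and 827 CPM in the Pi16-positive cells.

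**Figure D4:**
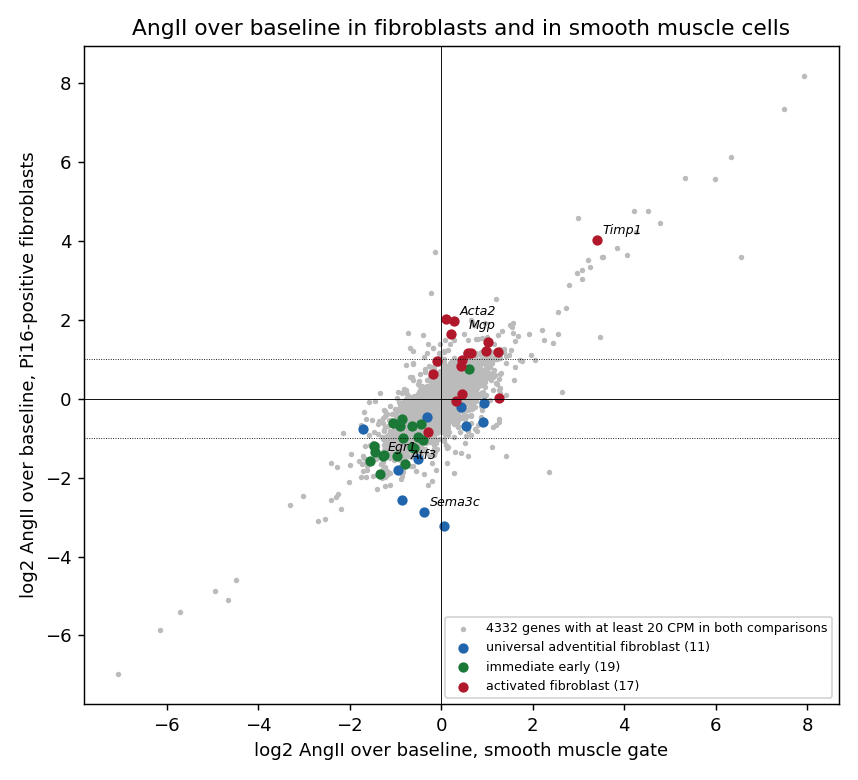
log2 ratio of AngII over baseline in the smooth muscle gate (x axis) and in Pi16-positive fibroblasts (y axis) for 4332 genes, with 3 lists in colour and dotted lines at 2-fold. Immediate early genes other than Ier3 (0.61 and 0.77) lie below 0 in both, Timp1 is at 3.40 and 4.04, and Sema3c is at -0.37 and -2.86, while grey points far out on the diagonal include genes that shifted alike in all 3 gates.

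Among signalling genes, the IGF list had 4 of 8 lower and 0 higher. Igfbp5, an IGF-binding protein, stood at 177 and 1396 CPM (-2.97), and Igfbp3 (-2.45), Igfbp6 and the receptor gene Igf1r (-1.12) were lower as well. Of 14 TGF-beta genes 3 were higher, among them Inhba (1.92) and the ligand gene Tgfb1, whereas Tgfbi (-2.05), Bambi (-1.47), Tgfb3 (-1.34), Tgfbr3 (-1.28) and Smad3 (-1.02) were lower. Wnt5a (-1.81) and Dkk3 (-1.36) were lower among 10 Wnt and BMP modulators. Of 14 transcription factors, Ebf1 (391 to 101 CPM, -1.95) and Ebf2 (-1.50) were lower and 0 higher. Complement factor gene Cfb was higher (152 against 28.2 CPM), though its exons overlap another gene. Of 16 ER folding genes and 5 corticosteroid and metallothionein genes, 0 passed 2-fold.

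By size alone, the 12 highest genes, at log2 ratios of 2.91 to 4.94, included Lcn2, Cenpm, Ccl9, Spc24, Timp1, Cdca3, Fabp4, Cdk1, Birc5, Isg15 and Zbp1. Fabp4, a fatty acid carrier of adipocytes, stood at 94.3 and 6.23 CPM, and the 5 adipocyte markers otherwise came to almost nothing, with 3 at 0 under AngII. The 12 lowest, at -5.02 to -2.28, included Gm9780, Efhd1, Angptl7, Igfbp5, Sema3c, Opcml, Cldn10, Ptgfr, Tek, Taf6l and Tcp11l2. Gm9780 was also lower in the smooth muscle gate (-3.21) and Taf6l was too (-2.06). Angptl7 stood at 45.6 and 391 CPM (-3.07) and Tek, the Tie2 receptor, at 5.98 and 37.9 CPM (-2.48).

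**Figure D5:**
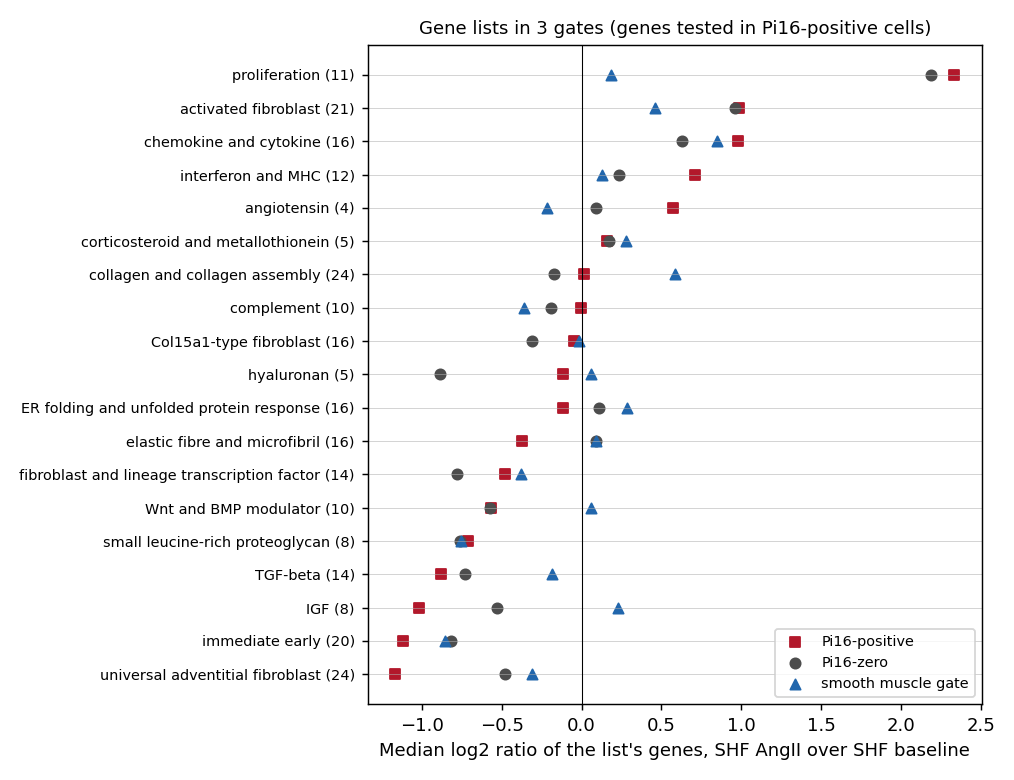
Median log2 ratio of AngII over baseline for 19 gene lists in Pi16-positive cells, Pi16-zero cells and the smooth muscle gate, with the number of genes tested in Pi16-positive cells in parentheses. Universal adventitial genes are lowest in Pi16-positive cells (-1.17) and cell-cycle genes highest (2.33).

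The difference between AngII and baseline was not alike for Pi16-positive and Pi16-zero cells in several genes, a contrast that shares its libraries and was not tested. Wif1, a Wnt inhibitor, stood at 12.8 and 15.1 CPM in the Pi16-positive cells, and at 6.33 and 282 CPM in the Pi16-zero cells. Postn stood at 50.6 and 284 CPM in the Pi16-zero cells. Ccl7 stood at 365 and 258 CPM there, so its ratio was 2.69 in Pi16-positive and 0.50 in Pi16-zero cells. Prg4, Ptn and Meox1 were the other 3 with the highest differences. In the opposite direction were Basp1, Nkain4, Adgrd1, Ptgs1, Tubb2b and Uchl1. Without the 8 cells with mesothelial or adipocyte markers (and 1 such cell at baseline), the difference for Nkain4 was -0.40 in place of -3.31 and its ratio in Pi16-zero cells -0.61 in place of 2.30, the direction of the Pi16-positive cells. The difference for Adgrd1 was then -1.66 in place of -3.20 and that for Ptgs1 -1.18 in place of -2.97, while that for Tubb2b was -2.85 both times.

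The cells set aside on Cthrc1 alone resembled the Pi16-positive cells in most genes. Of 4997, 27 (0.54%) were higher and 24 (0.48%) lower in the Pi16-positive cells. Both groups were chosen by Cthrc1, so this too is a description. Postn stood at 60.6 CPM in the Pi16-positive and 469 CPM in the Cthrc1-positive cells (-2.93). Col12a1 (68.9 against 199 CPM), Col11a1 (13.8 against 52.1 CPM), both fibril-associated or fibrillar collagens, and the crosslinking enzyme gene Loxl2 (24.2 against 74.8 CPM) were lower in the Pi16-positive cells, with Ddah1, Serpinb1a, Lrrc17 and Angptl1. Cytl1, Lamc3, Rbp4, Plvap, Tnnt2, Col4a3, Smoc1 and Itga8 were the 8 highest, Rbp4, a retinol carrier, at 1166 against 360 CPM. Median depth was 20068.5 UMIs in the Cthrc1-positive cells against 11806, and a limit on UMIs takes more of the deep cells. Timp1 was level (3344 and 3517 CPM).

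Pi16-positive cells of the CNC AngII library differed little from those of SHF AngII, with 30 of 5086 genes (0.59%) higher and 13 (0.256%) lower. C1qa (68.6 against 0.20 CPM), C1qb and Lyz2 are macrophage genes, and the 8 macrophage markers summed to 254 CPM in the CNC cells against 14.6 CPM, with a part in the other ratios that was not tested. Ptn, a heparin-binding growth factor, stood at 336 against 57.1 CPM. Tnnt2, a troponin gene, stood at 22.2 against 94.6 CPM, and Penk, Dapk2, Epyc and Rgs5 were lower as well. The universal adventitial list had 0 of 20 genes past 2-fold, with a median of 0.06.

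The Pi16-positive AngII cells also varied among themselves. In the 729 cells of at least 5000 UMIs, thinned to 5000, the highest ratios of variance to mean were those of Mgp (149), Spp1 (116), Thbs4 (95.7), Cst3 (47.5), Timp1 (44.2), Cxcl13 (37.4), Igfbp5 (34.9), Ren1 (30.1), Tagln (26.2) and Ptn (23.3). Spp1 (osteopontin) had UMIs in 12.1% of these cells, and the tenth of the cells with the most held 98.6% of its UMIs. Thbs4 was found in 1.51%, Cxcl13, a B cell chemokine, in 1.23% and Ren1 in 5.62%. Mgp and Cst3, in contrast, were found in 99.6% and 99.9% of the cells.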

How the data were processed

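Single-cell RNA was measured in the SHF_Baseline, SHF_AngII and CNC_AngII libraries, 1 per group, made with 10x Genomics 3' v3 chemistry per the labels. The sample labelled CNC_Baseline was not analysed here. The deposited files hold raw UMI counts per gene and barcode. Per the submitters' processing notes, fastp, STAR 2.5, HTSeq 0.6.1 and mm10 were used, with roles and annotation not given in the sources used here. The AngII files list 32285 genes and the baseline file 18760. Of these 18107 were matched, 513 through a unique RefSeq synonym.

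The UMIs of a group's cells were added up and divided by their total (CPM). Ratios were log2 of CPM + 1, for genes with a mean of at least 20 CPM, and called at 2-fold. Intervals are exact Poisson, Clopper-Pearson and, for ratios, conditional binomial, at 95%. With 1 library a group no test was made. The fold script was tested on simulated data. Doublets were marked with Scrublet (scanpy 1.11.5) and not removed. Exon overlaps came from GENCODE, on the same strand. TMM factors came from edgeR 4.0.16. Python 3.11.15, numpy 2.4.6 and scipy 1.17.1 were used.

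Named genes are the 12 highest and 12 lowest ratios of each main comparison among called genes detected in at least 10% of cells of the higher group, without mitochondrial, ribosomal protein and gate genes and, between conditions, without synonym matches, overlapping exons and shared shifts. The 6 highest and 6 lowest differences, the 10 most variable genes, the 8 highest and lowest of 2 added comparisons and listed genes are named too. The cells, the 19 gene lists and 11 marker lists were chosen with earlier results of these data known. A few genes that these rules pick are not reported here.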

Additional observations from a re-analysis of the deposited data

Results flagged for a closer look

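Emilin2 and, with all cells of the gate, Nkain4 had ratios of opposite sign between AngII and baseline in Pi16-positive and Pi16-zero cells, and neither difference was tested. Emilin2, an elastic fibre-associated glycoprotein, had a log2 ratio of -1.14 in Pi16-positive cells (28.3 against 63.7 CPM) and 1.27 in Pi16-zero cells (8.97 against 3.14 CPM). Nkain4, a partner of the sodium pump, had -1.01 in Pi16-positive and 2.30 in Pi16-zero cells. Of its 119 UMIs in the Pi16-zero AngII cells, 13 were outside the 8 cells with mesothelial or adipocyte markers. Without these 8 cells (and 1 such cell at baseline) its ratio in Pi16-zero cells was -0.61, so the opposite direction was lost. Emilin2 had 17 UMIs there with and 17 without those cells.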

How the results depend on the processing

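Differences have no replicate check, and genes under 20 CPM were counted only where no minimum was set. No paired analysis was possible because each group is 1 library. The Pi16-positive share was 36.4% with a Pi16 minimum of 1, 29.6% with 3, 40.8% after thinning and, in alternatives chosen after seeing the data, 82.9% without the Comp, Chad and Cthrc1 limits and 5.30% with 30 Pi16 UMIs. Against Pi16-zero cells, genes were higher and lower in number 403 and 804 without a minimum level (more genes tested), 25 and 23 at 100 CPM (fewer genes), and 157 and 254 with 30 Pi16 UMIs. Thinning gave 93 higher, a pseudocount of 10 CPM gave 79 lower and all Pi16-zero gated fibroblasts gave 81 lower. Between conditions they were 316 and 258 with TMM scaling, 661 and 1224 without a minimum, 70 and 115 at 100 CPM, and 265 lower with a pseudocount of 10 CPM. The other alternatives kept these counts within 1.5 times. Among single values past 2-fold, 4 turned sign: Cytl1 against Pi16-zero cells to -0.43 (all Pi16-zero gated fibroblasts) and -1.44 (without the 3 limits), Nkain4 to 0.47 (Pi16-zero cells without mesothelial or adipocyte markers, chosen after seeing the data), and the IGF list median between conditions to 0.51 (100 CPM, 5 genes). Medians of lists that were under 2-fold turned sign in 67 alternative values, in 18 of 38 pairs of a list and a comparison. Against all Pi16-zero gated fibroblasts the activated fibroblast median went from 0.17 to -0.46, that of Wnt and BMP modulators from 0.30 to -0.34 and the cell-cycle median from 0.14 to -0.10. The collagen median between conditions went from 0.02 to -0.17 at 100 CPM (17 genes). The cause was not tested. Of 544 list medians 532 and of 696 values of named genes 458 stayed within 1.5 times (list medians) or within the counting interval of the ratio (genes).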
